A study of Mus musculus with 4 samples.

Results

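The 32 genes described here, of the 32285 in the count matrices, encode the folding, quality control and protein entry machinery of the endoplasmic reticulum (ER) together with the sensors that control it. They were chosen by symbol as genes of the ATF6, XBP1 and IRE1 arms of the unfolded protein response, and all 32 were found. They comprise 10 chaperones and co-chaperones, 4 protein disulfide isomerases, 2 lectin chaperones, 8 genes of ER-associated degradation, 5 genes of the translocation channel and its partner complex, and 3 sensors or transcription factors. The study compared brain tumours of mice given vehicle or SCDi, read from the study title as an inhibitor of SCD, the desaturase that turns stearate and palmitate into monounsaturated fatty acids. Tumours were grown by intracranial implantation of GFP-expressing EO771 cells, a mouse mammary cancer line, into immunocompetent female C57BL/6 mice, and treatment lasted 14 days. The identity, dose and route of SCDi and the age of the mice were not given in the sources used here. The groups were vehicle tumour cells, SCDi tumour cells, vehicle immune cells and SCDi immune cells, where tumour cells were live, CD45-negative and GFP-positive and immune cells were live, CD45-positive and GFP-negative. Each group was 1 10x library, counting transcripts of single cells from their 3' ends and made from 3 pooled mice. With 1 library per group the spread between mice could not be measured, so no test between treatments was made, and every interval below covers counting error only.

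Proteins that enter the ER are folded with the help of the chaperone BiP (Hspa5), the lectins calnexin and calreticulin and the disulfide isomerases, and those that fail to fold are sent back to the cytosol for degradation. IRE1 (Ern1) and ATF6 span the ER membrane and respond to unfolded protein, IRE1 by splicing Xbp1 mRNA into the form that encodes an active transcription factor, and ATF6 by moving to the Golgi where its cytosolic part is cut free to act in the nucleus. Both sensors are also known to respond to changes of the membrane itself, such as an excess of saturated acyl chains, which is why the genes are read here beside inhibition of SCD. The 3' counts do not separate spliced from unspliced Xbp1 mRNA and say nothing of ATF6 cleavage, so only transcript levels are described.

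The tumour libraries held 307846497 (vehicle) and 329888529 (SCDi) unique molecular identifiers (UMIs, counts of RNA molecules), and the immune libraries 135851178 and 141068797. Cells with at least 300 genes and at most 15% mitochondrial UMIs were assigned to types by marker genes. The tumour gate (at least 2 UMIs of Krt8, no Ptprc and at most 1 UMI of Pecam1 and Cldn5 together) held 7063 vehicle and 8130 SCDi cells, called tumour-sort cells below. The epithelial label rested on Krt8, since Krt18 was detected in 17.1% and 19.5% of these cells and each of Krt7, Krt19, Epcam, Cldn3, Cldn4 and Cldn7 in under 2% in both libraries. Of 85 marker genes of 13 leukocyte types, 57 were each in under 1% of these cells in both libraries, among them C1qb (0.495% and 0.271%) and Cd3e (0 UMIs). The 12 in over 20% in both included Bst2, Cd63, Cd79a, Fscn1, Gata2, Irf8, Pax5, Sdc1, Sparc, Tcf4 and Vcan, and the plasma cell gene Mzb1 was in 9.70% and 18.4%. The part of these transcripts in the ratios was not tested. Pairs of libraries shared between 9 and 23 cell barcodes, at most 0.314% of the smaller library. In the immune libraries 9 types had at least 50 cells in both treatments, and the fewest were plasmacytoid dendritic cells (83 and 64). For each type the UMIs of a gene were summed over cells and given as CPM, the count of the gene scaled by all UMIs of that type, and the ratio of SCDi to vehicle was taken on the log2 scale with 0.5 counts added. A gene was compared where both libraries together held at least 100 of its UMIs, and it is called higher or lower where the ratio passed 1.2-fold and its 95% interval excluded 1.

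The promoters of many of these genes carry the ER stress response element (ERSE), a CCAAT box and a CCACG block 9 bases apart, where NF-Y binds beside ATF6 or XBP1. The sequences are shown because the members that carry this element are set beside the others in the cell types below. RefSeq promoters of 250 bases before to 50 bases after the start site (GRCm38.p6) were matched for 26 of the 32 members, and not for Manf, Hyou1, Derl1, Sec61a1, Ssr2 and Atf6. The element, searched as CCAAT, 9 bases of any kind and CCACG on both strands, was found in 9 of the 26 members, or 34.6%, against 0.137% of all 27025 genes with a promoter in the table. The members were chosen as genes of the unfolded protein response, so this difference describes the list and is no result of these data. The related ERSE-II, searched on both strands as ATTGG, 1 base of any kind and CCACG, was found in Dnajb11 and Herpud1 (7.69% of matched members against 0.0444% of genes). TGACGTGG, searched on both strands for the other XBP1 and ATF6 element (UPRE), was in 0 of the 26 promoters and in 0.714% of genes. The Hspa5 promoter held 1 ERSE at -65 to -47 from the start site, and Hsp90b1 held 2 of them in opposite directions, at -212 to -194 and at -107 to -89. The promoters of Hspa5, Hsp90b1 and Herpud1 are given below 5' to 3' on the strand of the gene, with the fixed blocks of each element in capitals.
Hspa5 (chr2:34771840-34772139, + strand): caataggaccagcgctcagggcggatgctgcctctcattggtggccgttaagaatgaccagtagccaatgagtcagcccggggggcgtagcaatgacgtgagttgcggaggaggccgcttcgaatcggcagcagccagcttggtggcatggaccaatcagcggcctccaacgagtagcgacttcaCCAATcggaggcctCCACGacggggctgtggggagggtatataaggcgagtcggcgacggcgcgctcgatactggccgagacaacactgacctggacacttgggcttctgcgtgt
Hsp90b1 (chr10:86705395-86705694, - strand): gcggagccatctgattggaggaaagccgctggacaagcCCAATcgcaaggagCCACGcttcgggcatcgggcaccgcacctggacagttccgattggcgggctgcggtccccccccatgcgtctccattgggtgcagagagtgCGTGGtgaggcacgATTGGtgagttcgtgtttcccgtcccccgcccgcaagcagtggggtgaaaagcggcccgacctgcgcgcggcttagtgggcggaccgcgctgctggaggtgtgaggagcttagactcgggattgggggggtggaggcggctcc
Herpud1 (chr8:94386179-94386478, + strand): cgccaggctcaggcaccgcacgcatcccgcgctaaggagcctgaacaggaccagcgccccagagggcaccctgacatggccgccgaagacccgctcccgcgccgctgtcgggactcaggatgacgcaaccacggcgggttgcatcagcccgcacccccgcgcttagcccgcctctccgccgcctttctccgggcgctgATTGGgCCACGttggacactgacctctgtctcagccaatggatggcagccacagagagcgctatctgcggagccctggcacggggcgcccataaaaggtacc
The ERSE sites of the other 7 members are given in the same way. A site that reads CGTGG before ATTGG lies on the opposite strand.
Dnajc3: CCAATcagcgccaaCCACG
Creld2: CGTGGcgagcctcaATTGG
Pdia6: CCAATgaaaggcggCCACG
Calr: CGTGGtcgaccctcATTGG
Canx: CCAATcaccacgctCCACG
Syvn1: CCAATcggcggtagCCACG
Derl3: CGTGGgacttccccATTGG
A match of letters is a description of the sequence and does not show binding.

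In tumour-sort cells 31 of the 32 members were compared, and their levels were close to each other in the 2 treatments. None of the 31 was called higher, where 10.4% of all 14372 genes compared were, and 1, Sel1l, was called lower, where 13.1% of all genes were. Ratios ran from -0.35 to 0.23, 12 lay above 0 and 19 below, and the median was -0.05 against -0.03 for all genes. Summed over the members, the level was 4638 CPM in the vehicle and 4571 CPM in the SCDi library. The one member not compared was Derl3, with 0 and 1 UMIs.

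**Figure D1:**
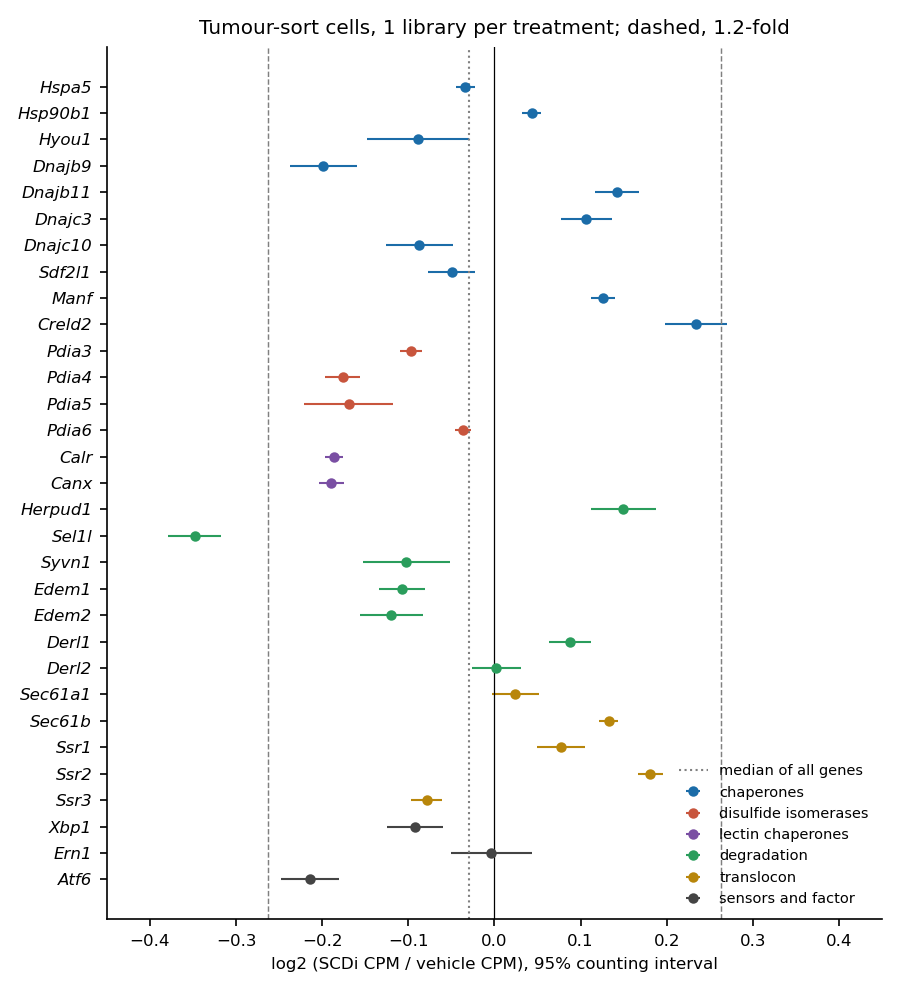
Log2 ratio of SCDi to vehicle CPM in tumour-sort cells for the 31 members compared, coloured by role, with 95% counting intervals (1 library per treatment); dashed lines mark 1.2-fold and the dotted line the median of all genes. Sel1l at -0.35 is the one point beyond a dashed line.

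Among the chaperones, Hspa5, the ER's main Hsp70, was at 428.8 CPM in the vehicle and 418.8 CPM in the SCDi library, a log2 ratio of -0.03 (95% interval -0.045 to -0.023). Hsp90b1, the ER's Hsp90, was at 403.0 and 415.2 CPM (0.04). These 2 abundant chaperones thus differed between libraries by far less than 1.2-fold. Creld2, a cysteine-rich ER protein known as an ER stress transcript, had the highest ratio of all members, 0.23 (0.20 to 0.27), with 36.99 and 43.49 CPM. The next chaperones were Dnajb11 (0.14), a co-chaperone of BiP, Manf (0.13), a secreted ER stress protein that binds BiP, and Dnajc3 (0.11), also called p58IPK. Dnajb9, also called ERdj4, a co-chaperone that is a known XBP1 target and represses IRE1, went from 36.82 to 32.09 CPM (-0.20). Hyou1 (-0.09), an exchange factor for BiP, Dnajc10 (-0.09), a disulfide reductase with a J domain, and Sdf2l1 (-0.05), which works with Dnajb11, were slightly below 0. Of the 10 chaperones, 5 were thus above and 5 below 0, and their median was 0.00.

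All 4 disulfide isomerases and both lectin chaperones had ratios below 0, and none passed 1.2-fold. Pdia6, the isomerase with the highest level, was at 577.6 and 563.2 CPM (-0.04), and Pdia3, which works with the lectins, at 321.1 and 300.2 CPM (-0.10). Pdia4 was at 133.8 and 118.4 CPM (-0.18) and Pdia5 at 20.97 and 18.65 CPM (-0.17). The lectins, which hold glycoproteins during folding, went the same way, Calr from 484.8 to 426.0 CPM (-0.19) and Canx from 251.4 to 220.5 CPM (-0.19). Calr lies on chromosome 8 (chr8:84841850-84846934, mm10), where the median ratio of the 785 genes compared was -0.13, the lowest of any chromosome. After that median was subtracted the ratio of Calr was -0.06.

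The genes of ER-associated degradation did not move together. Sel1l, the adaptor of the HRD1 ubiquitin ligase complex (chr12:91806043-91849157, mm10), went from 61.05 to 47.97 CPM, a log2 ratio of -0.35 (-0.38 to -0.32). Syvn1, which encodes the ligase HRD1 itself, was at 21.25 and 19.79 CPM (-0.10). The mannosidase-like Edem1 (-0.11) and Edem2 (-0.12), which mark misfolded glycoproteins, were also below 0. Herpud1, a membrane partner of the same ligase, was at 34.73 and 38.52 CPM (0.15), and the channel proteins Derl1 (0.09) and Derl2 (0.00) were at or above 0. Herpud1 is the other member on chromosome 8, and its ratio less that chromosome's median was 0.28, past 1.2-fold.

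Of the translocation genes 4 of 5 were above 0. Ssr2, the beta subunit of the complex beside the channel, was at 228.2 and 258.7 CPM (0.18), and Sec61b, a small subunit of the channel, at 404.8 and 443.8 CPM (0.13). Ssr1 (0.08) and the channel's pore subunit Sec61a1 (0.02) were lower than these, and Ssr3 was at 158.1 and 149.7 CPM (-0.08). The 3 sensor genes lay at or below 0. Atf6 was at 47.97 and 41.35 CPM (-0.21, -0.25 to -0.18), Xbp1 at 50.92 and 47.77 CPM (-0.09), and Ern1 at 23.62 and 23.56 CPM, with a ratio of 0.00 (-0.05 to 0.04).

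Cells with a UMI of Mki67 or Top2a, genes of dividing cells, made up 78.5% of the vehicle and 87.6% of the SCDi tumour-sort cells, and the members differed between these and the other cells. In the 1515 vehicle and 1005 SCDi cells without either transcript the median ratio was 0.07 (all genes -0.01), and 19 of 31 members were above 0. Creld2 (0.29), Ern1 (0.30) and Herpud1 (0.33) were called higher there, where 8.99% of all genes were, and 0 members lower, where 8.24% were. Herpud1 went from 31.83 to 40.02 CPM and Ern1 from 19.67 to 24.13 CPM in those cells. Hspa5 went from 422.2 to 465.3 CPM (0.14), the opposite sign to its value over all tumour-sort cells. In the cells with Mki67 or Top2a, 0 members were called higher and 1 lower (all genes 8.55% and 13.5%), and the median was -0.05. The cells without these transcripts were less deeply counted under SCDi, with a median of 30860 UMIs per vehicle cell and 21970 per SCDi cell. The part of cell division and of depth in these differences was not tested.

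**Figure D2:**
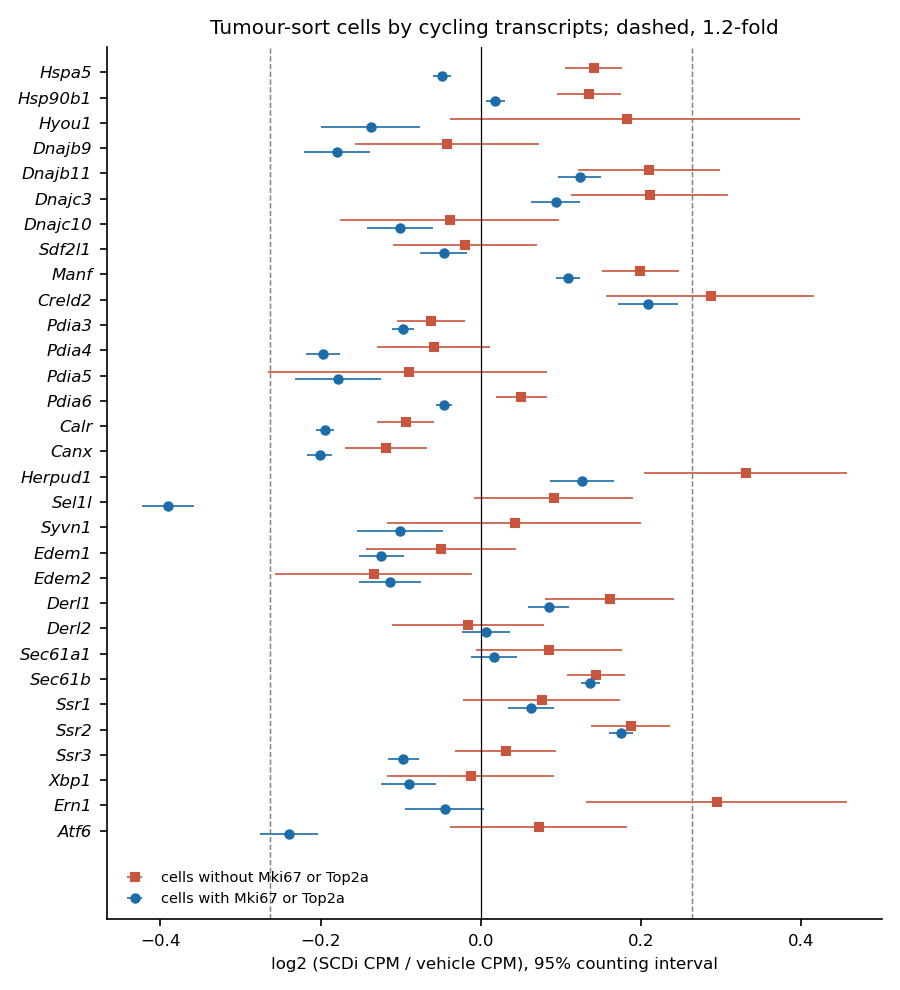
Log2 ratio of SCDi to vehicle CPM for the 31 members in tumour-sort cells without (squares) and with (circles) a UMI of Mki67 or Top2a, with 95% counting intervals; dashed lines mark 1.2-fold. Creld2, Ern1 and Herpud1 lie past the right line in cells without these transcripts, and Sel1l lies past the left line in cells with them and not in the others.

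The lower Sel1l of the SCDi library was not found in every kind of tumour-sort cell. In cells without Mki67 or Top2a Sel1l was at 56.86 and 60.56 CPM (0.09, -0.01 to 0.19). Cells were also split at the pooled median of the share of their UMIs that came from chromosome 8, with members left out of the share. That chromosome had the lowest median ratio of all in these same cells, and Calr and Herpud1, named below, lie on it. The split is therefore not independent of the difference between treatments. The chromosome 8 share was above the pooled median in 60.2% of vehicle and 41.1% of SCDi cells. In cells above it Sel1l was at 59.79 and 61.37 CPM (0.04), and in cells below it at 63.12 and 38.29 CPM (-0.72, -0.77 to -0.67). Sel1l lies on chromosome 12, whose genes had a median ratio of -0.05. With both splits, Sel1l was at 64.09 and 37.57 CPM (-0.77) in cells with Mki67 or Top2a and a low share of chromosome 8 and at 0.00 on the log2 scale in those with a high share, while in cells without these transcripts it was at -0.25 and 0.45. The part of the chromosome 8 share in the Sel1l value was not tested. Below the chromosome 8 median 1 member was called higher and 3 lower (all genes 12.9% and 15.5%), and above it 1 higher and 0 lower (6.94% and 13.3%). Within cells with Mki67 or Top2a the counts were 0 higher and 4 lower at a low share (10.9% and 16.5%), the 4 being Sel1l, Calr (-0.32), Dnajb9 (-0.31) and Pdia4 (-0.27), and 1 and 0 at a high share (5.76% and 13.5%). Within cells without them they were 1 and 0 at a low share (9.05% and 7.85%) and 3 and 0 at a high share (8.4% and 9.3%), Herpud1, Sel1l and Creld2.

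Other genes of the same pathways were read in tumour-sort cells from 7 lists, to be set beside the 10.4% of all genes called higher and 13.1% called lower. Of the 12 genes of the PERK and ATF4 arm, the third branch of the unfolded protein response, 2 were called higher and 1 lower. Chac1, a glutathione-degrading enzyme induced by ATF4, was at 4.914 and 6.276 CPM (0.35), and the stress factor Ddit3 (the feature ENSMUSG00000025408, 1 of 2 with that symbol) at 4.193 and 5.054 CPM (0.27). The kinase PERK itself (Eif2ak3) was at 28.82 and 21.50 CPM (-0.42), while Ppp1r15b, a phosphatase subunit of that arm, was at -0.18. Of 26 other folding genes 0 were called higher and 1 lower, the oxidase Ero1l (62.05 and 49.45 CPM, -0.33). The extremes of that list were otherwise Sil1 (-0.20), Cnpy4 (0.20) and Cnpy3 (0.24). Of 17 other degradation genes compared, 1 was called higher, Selenos (100.3 and 122.6 CPM, 0.29), and 0 lower, with Ube2g2 at 0.11 and Erlec1 at -0.22.

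Of 27 other translocation and glycosylation genes 1 was called higher, Srp19 of the signal recognition particle (135.3 and 163.9 CPM, 0.28), and 0 lower, with Ostc at 0.25 and Tram2 and Sec61a2 both at -0.15. Of 15 genes of the KDEL receptors and ER to Golgi traffic 1 was called higher, Kdelr3 (56.56 and 84.60 CPM, 0.58), which returns escaped ER proteins from the Golgi, and 0 lower. Tmed9 (0.08), Lman1 (-0.09) and Sec24a (-0.13) were the other extremes of that list. Of the 12 genes compared among sensor processing and partner factors 0 were called higher and 2 lower, the membrane-bound factors Creb3l1 (2.605 and 1.483 CPM, -0.81) and Creb3l2 (98.33 and 77.30 CPM, -0.35). Wfs1 (-0.41, with an interval that held 0), Nfyc (0.10) and Atf6b (0.10) were the others at the ends of the list. Of 6 transcripts that IRE1 is known to cut, 0 were called higher and 1 lower, Hgsnat (52.42 and 34.02 CPM, -0.62), while Sparc (0.06), Pdgfrb (-0.05) and Bloc1s1 (-0.13), the best known of these targets, did not pass 1.2-fold.

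Across single tumour-sort cells with at least 10000 UMIs (6470 vehicle and 7547 SCDi cells), 28 members with a mean of at least 1 UMI were correlated in pairs on the log scale. The median Pearson r over 378 pairs was 0.07 in the vehicle and 0.05 in the SCDi library. The 9 pairs above 0.3 in both libraries were formed by 7 members, Hspa5, Hsp90b1, Pdia3, Pdia6, Calr, Canx and Manf. Hspa5 with Hsp90b1 reached 0.45 in the vehicle and 0.42 in the SCDi library, and Hspa5 with Calr 0.46 and 0.38. In contrast, Sec61b and Atf6 were at -0.21 and -0.17. These values describe cells that share a library and differ in depth, and sampling noise lowers r for genes with few UMIs. Over the same cells the members together took a median of 44.6 UMIs of every 10000 in the vehicle and 44.8 in the SCDi library, with 5th to 95th percentiles of 31.8 to 65.3 and 33.0 to 62.6.

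In the 9 leukocyte types, 259 ratios of members were compared, 15 were called higher and 18 lower, with 11 of these calls in T cells and 7 in migratory dendritic cells. Over the same types 7.52% of the values of all genes were called higher and 12.4% lower, so the members were called no more often than genes at large. Hspa5, Dnajb11, Edem1, Derl1, Sec61b, Ssr1, Ssr2 and Xbp1 were compared in all 9 types and called in none. Edem2, Hyou1, Syvn1 and Pdia5 were compared in 8, 6, 4 and 2 types and not called, and Derl3 was compared in none. All 9 types share the same 2 immune libraries, so their values are given side by side and not as independent repeats.

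**Figure D3:**
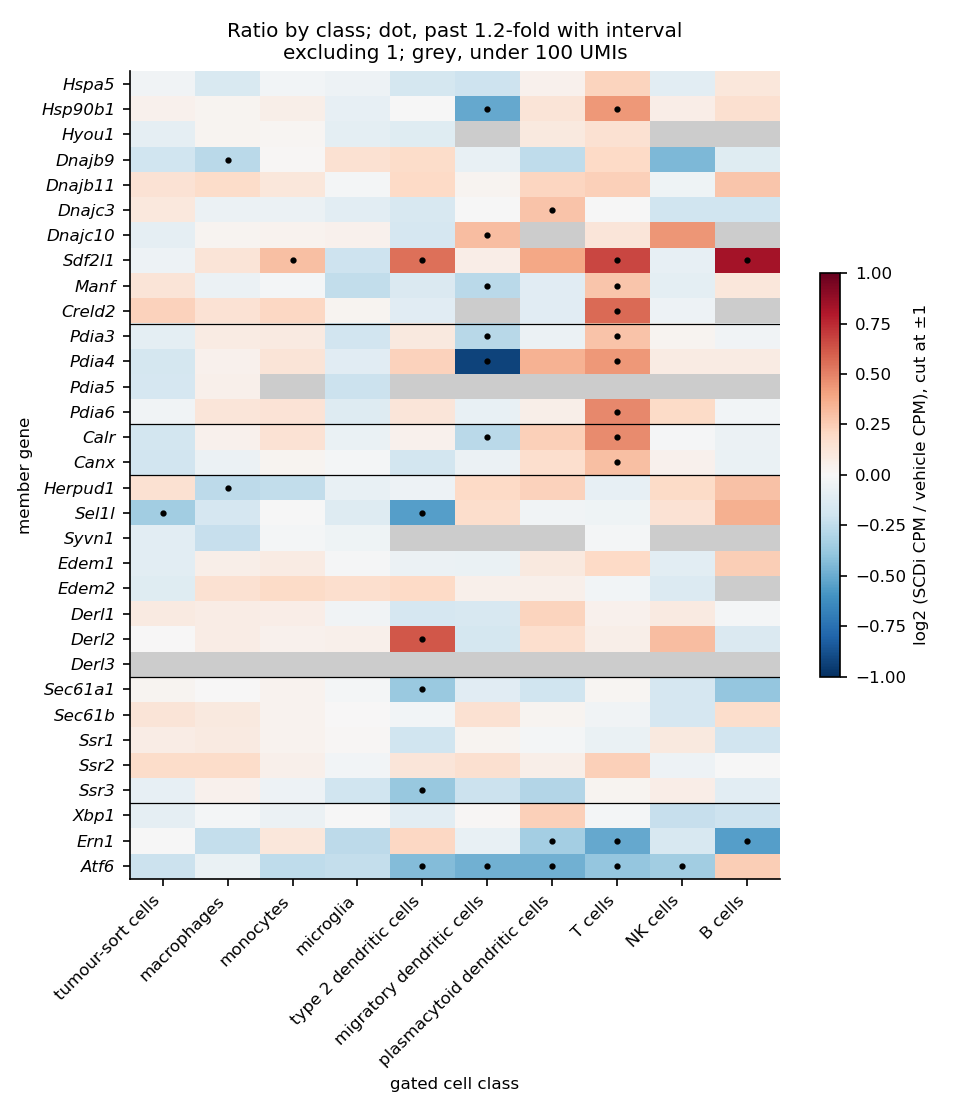
Log2 ratio of SCDi to vehicle CPM for each member (rows, grouped by role) in tumour-sort cells and 9 leukocyte types (columns); red is higher and blue lower under SCDi, dots mark ratios past 1.2-fold with an interval that excludes 1, and grey marks fewer than 100 UMIs. T cells hold 9 higher and 2 lower dots, and migratory dendritic cells 1 higher and 6 lower.

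T cells (362 vehicle and 232 SCDi cells) had the most calls. Of 30 members compared, 9 were called higher, where 11.2% of all 8851 genes were, and 2 lower, where 14.2% were, and the median ratio was 0.14 against -0.04 for all genes. Sdf2l1 went from 60.70 to 96.31 CPM (0.67, 0.48 to 0.86) and Creld2 from 27.39 to 40.54 CPM (0.57, 0.28 to 0.85). Calr went from 364.4 to 504.9 CPM (0.47, 0.39 to 0.55) and Hsp90b1 from 293.3 to 395.1 CPM (0.43, 0.34 to 0.52). Among the isomerases Pdia6 was at 143.7 and 200.1 CPM (0.48), Pdia4 at 50.79 and 68.42 CPM (0.43) and Pdia3 at 303.5 and 369.4 CPM (0.28). Canx (127.2 and 157.0 CPM, 0.30) and Manf (198.1 and 240.3 CPM, 0.28) completed the members called higher. With a stricter marker gate 4 of the 30 members were called higher, where 8.34% of all genes were. Among the members called higher were 4 of 10 chaperones, all 3 isomerases compared and both lectins. The count was 0 of 7 degradation genes and 0 of 5 translocation genes. Outside the members, the folding genes were not set apart in this way. Of 20 other ER folding genes compared in T cells, 2 were called higher and 2 lower, with a median of -0.03. Of 27 other translocation and glycosylation genes, 3 were called higher and 0 lower, with a median of 0.01. Among 17 other degradation genes compared, 0 were called higher and 0 lower, with a median of 0.01. Hspa5 itself was at 449.6 and 524.0 CPM (0.22), under 1.2-fold. The sensors went the other way, with Ern1 at 135.2 and 94.72 CPM (-0.51) and Atf6 at 154.7 and 118.1 CPM (-0.39), while Herpud1 (45.56 and 42.91 CPM, -0.09) had the next lowest ratio. Of the 8 members with an ERSE that were compared in T cells, 5 were called higher and their median ratio was 0.37. Of the 16 matched members without one, 3 were called higher and the median was 0.04. Dnajb11 and Herpud1, which carry an ERSE-II, were counted among those without, and Manf had no matched promoter. Of the members with an ERSE that were compared, Syvn1 was the only degradation gene, and there was no translocation gene. The part of these roles in the difference was not tested. In the other types the medians with and without an ERSE were -0.04 and -0.09 in tumour-sort cells, -0.02 and 0.05 in macrophages, 0.04 and 0.04 in monocytes, and -0.06 and -0.02 in microglia. They were -0.11 and 0.04 in type 2 dendritic cells, 0.13 and 0.05 in plasmacytoid dendritic cells, -0.01 and -0.01 in NK cells, and -0.05 and 0.03 in B cells.

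The T cells were split in ways chosen after the data were seen, and the 9 members called higher were called higher in dividing and in deeply counted cells. The 9 were picked by their calls in all T cells, which include these subsets, so their calls there are no independent support. In cells at or below the pooled median depth 6 of the 9 could be compared, of which 0 were called higher and 2, Calr and Canx, lower. In T cells without Mki67 or Top2a (56.6% of vehicle and 62.5% of SCDi cells) 0 of those 9 genes were called, and 1 member was called higher (all genes 7.78%), Edem1 at 100.2 and 135.5 CPM, and 0 lower (10.6%). In T cells with either transcript all 9 genes were called higher, among 12 members called higher (15.4% of all genes) and 2 lower (21.4%), and Calr went from 387.2 to 600.7 CPM. In these dividing cells the median depth was 23790 UMIs in the vehicle and 30720 in the SCDi library. At or below the pooled median depth of T cells 0 members were called higher and 4 lower (7.14% and 16.9% of all genes), and above it 11 higher and 2 lower (13.5% and 15.5%). Cells with Cd8a or Cd8b1 and no Cd4 made up 17.1% of vehicle and 27.2% of SCDi T cells, and in them 11 members were called higher and 0 lower (19.1% and 25%), with Sdf2l1 at 62.28 and 141.1 CPM. Among the 41 and 39 such cells without Mki67 or Top2a, 1 member was called higher and 1 lower (10.4% and 16.1%), and the one lower was Hspa5 at 488.8 and 333.9 CPM. In cells with Cd4 and neither Cd8 gene 5 were called higher and 2 lower (11.3% and 11.4%). The marker list of plasma cells, whose chaperone levels are high, summed to 3.30 and 2.37 CPM in T cells with 3 of 5 genes at 0 in each library. Macrophage markers summed to 1133 and 1040 CPM (0 of 9 genes at 0). The part of cell division, depth and the larger share of Cd8 cells in the T-cell ratios was not tested.

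**Figure D4:**
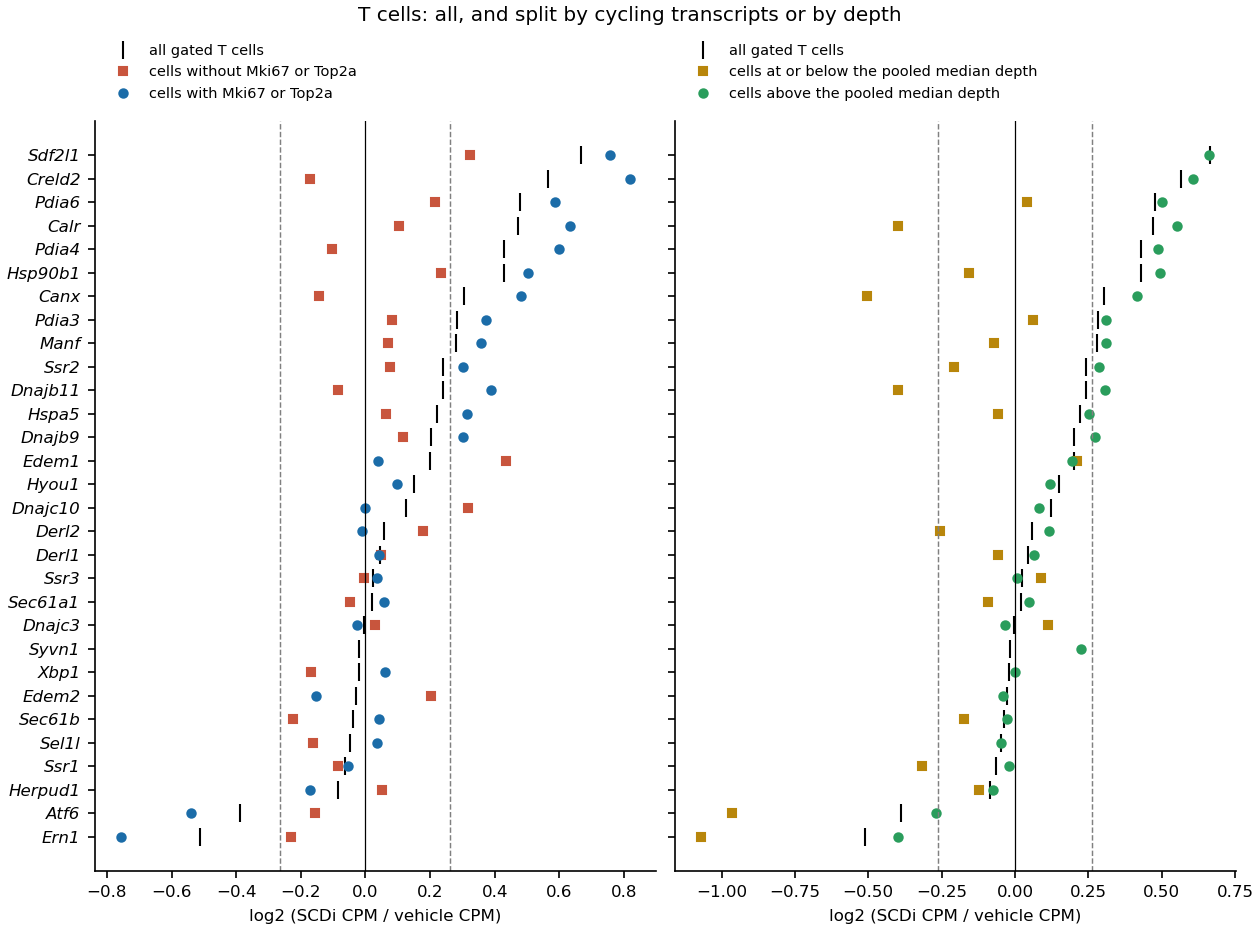
Log2 ratio of SCDi to vehicle CPM for members in all gated T cells (vertical ticks) and in T cells split by Mki67 or Top2a (left panel; squares without, circles with) or at the pooled median depth (right panel; squares at or below, circles above); dashed lines mark 1.2-fold and genes are ordered by the ratio in all T cells. The circles of the top 9 members lie past the right line in both panels, and none of their squares does so with an interval that excludes 1.

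Migratory dendritic cells (484 and 259 cells), mature cells that express Ccr7, differed in the opposite direction for 5 of the same genes, though most of these calls ended under a stricter gate. Of 27 members compared, 6 were called lower, where 13% of all 7305 genes were, and 1 higher, where 5.39% were. Hsp90b1 went from 144.6 to 101.5 CPM (-0.51, -0.68 to -0.34), Pdia3 from 174.1 to 143.6 CPM (-0.28), Calr from 158.0 to 131.2 CPM (-0.27) and Manf from 96.88 to 80.29 CPM (-0.27). Pdia4 went from 13.80 to 7.155 CPM (-0.93, -1.62 to -0.32) on 96 and 27 UMIs. Atf6 was the remaining member called lower (58.65 and 41.87 CPM, -0.48), and Dnajc10 the one called higher (67.99 and 84.27 CPM, 0.31). Sel1l (91.13 and 102.8 CPM, 0.17) and Herpud1 (167.0 and 191.6 CPM, 0.20) were the next highest. With a stricter marker gate 2 members were called lower (all genes 12.6%), and with scaling by the median of ratios 3 (all genes 9.6%). Of the 5 genes called both ways, Hsp90b1 was the one still called under the stricter gate in both types, with 4 of the 5 compared there in migratory dendritic cells. All 6 members with an ERSE that were compared lay below 0, with a median of -0.14 and 2 called lower, and the median of 16 without one was 0.02. The median over all members was -0.07, close to the -0.06 of all genes. Above the pooled median depth of these cells 7 members were called lower and 1 higher (13.6% and 6.04% of all genes), and at or below it 2 and 1 (9.65% and 6.34%). Monocyte markers summed to 657 CPM in the vehicle and 438 CPM in the SCDi library (0 of 7 at 0) and cycling markers to 7.76 and 12.5 CPM, and their part in the result was not tested. Whether T cells and migratory dendritic cells differ in their response was not tested, as there was 1 library per treatment. The share of all genes called in opposite directions in these types is not given here.

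In the myeloid types with the most cells few members were called. In macrophages (1959 and 2164 cells) 2 of 31 were called lower, where 12.7% of all genes were, and 0 higher, where 7.07% were. Dnajb9 was at 36.33 and 30.12 CPM (-0.27) and Herpud1 at 44.33 and 36.90 CPM (-0.26), both just past 1.2-fold, and Ern1 was just short of it (137.7 and 116.8 CPM, -0.24). Dnajb11 (141.7 and 161.1 CPM, 0.18), Ssr2 (104.1 and 118.1 CPM, 0.18) and Edem2 (40.07 and 44.49 CPM, 0.15) had the highest ratios. In monocytes (1910 and 1888 cells) 1 of 30 was called higher (all genes 5.57%), Sdf2l1 at 75.35 and 92.79 CPM (0.30, 0.22 to 0.38), and 0 lower (11.6%). Creld2 (41.04 and 47.31 CPM, 0.21) and Edem2 (34.71 and 39.71 CPM, 0.19) followed it. Atf6 (273.3 and 228.7 CPM, -0.26), Herpud1 (49.73 and 41.94 CPM, -0.25) and Xbp1 (156.0 and 149.8 CPM, -0.06) were lowest.

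In microglia (438 and 546 cells), the resident macrophages of the brain, 0 of 31 members were called either way, where 4.80% of all genes were called higher and 8.27% lower. The ratios of 24 members were below 0 and the median was -0.05. Ern1 (75.80 and 63.27 CPM, -0.26), Manf (292.7 and 246.2 CPM, -0.25) and Atf6 (203.3 and 172.1 CPM, -0.24) were lowest, and Edem2 (73.02 and 82.21 CPM, 0.17), Dnajb9 (41.20 and 45.75 CPM, 0.15) and Derl2 (66.26 and 68.66 CPM, 0.05) highest. Microglia were less deeply counted under SCDi, with medians of 22950 and 17290 UMIs per cell. When every cell was thinned to 5000 UMIs (18 vehicle and 28 SCDi cells under that depth left out), 7 of 29 members were called lower and 1 higher, where 8.39% and 7.13% of all genes were, and the median was -0.18 against -0.02 for all genes. When the CPM of single cells were averaged 9 of 31 were called lower and 2 higher, where 13.7% and 10.1% of all genes were, and the median was -0.13 against -0.02. The part of depth in these differences was not tested.

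The smaller types gave wide intervals. In type 2 dendritic cells (140 and 119 cells) 4 of 29 members were called lower and 2 higher (12.1% and 10.8% of all genes). Sel1l went from 48.93 to 33.40 CPM (-0.55), Atf6 from 322.7 to 238.4 CPM (-0.44), Ssr3 from 146.8 to 113.0 CPM (-0.38) and Sec61a1 from 68.73 to 53.20 CPM (-0.37). Derl2 (31.06 and 47.84 CPM, 0.62) and Sdf2l1 (64.46 and 94.44 CPM, 0.55) were called higher, and Pdia4 was at 28.73 and 33.82 CPM (0.23). In plasmacytoid dendritic cells 2 of 28 were called lower and 1 higher (12.9% and 9.81%), Atf6 from 413.4 to 296.5 CPM (-0.48), Ern1 from 209.5 to 165.3 CPM (-0.34) and Dnajc3 from 244.3 to 298.5 CPM (0.29). Sdf2l1 (78.13 and 102.1 CPM, 0.39), Pdia4 (71.74 and 91.39 CPM, 0.35) and Ssr3 (173.3 and 141.0 CPM, -0.30) had intervals that held 0.

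In NK cells (197 and 163 cells) 1 of 28 members was called lower (9.36%), Atf6 from 205.1 to 161.3 CPM (-0.34), and 0 higher (7.76%). Dnajc10 (26.47 and 35.92 CPM, 0.44), Derl2 (39.49 and 48.88 CPM, 0.31) and Pdia6 (163.8 and 187.3 CPM, 0.19) were highest. Xbp1 (83.91 and 71.25 CPM, -0.23) and Dnajb9 (39.49 and 28.85 CPM, -0.45) were low, and the intervals of these 5 held 0. In B cells (125 and 102 cells) 1 of 25 was called higher (9.18%), Sdf2l1 from 36.82 to 65.83 CPM (0.83, 0.35 to 1.33), and 1 lower (21.3%), Ern1 from 67.61 to 46.08 CPM (-0.55). Sel1l (41.65 and 53.39 CPM, 0.36), Herpud1 (86.93 and 106.8 CPM, 0.30), Xbp1 (71.84 and 62.17 CPM, -0.21) and Sec61a1 (78.48 and 59.97 CPM, -0.38) had intervals that held 0.

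Read across types, Atf6, Sdf2l1 and Ern1 were called in the most leukocyte types of any member. The share of all genes called in as many types is not given here, and the types share the same libraries. Atf6 was below 0 in 8 of 9 leukocyte types and called lower in 5 of them, type 2, migratory and plasmacytoid dendritic cells, T cells and NK cells, and its ratio in B cells was above 0. Atf6 is the one member whose gene is at least 100 kb long (163.1 kb), and genes of that length had lower ratios in every type. In T cells their median was -0.19 with 31.2% called lower, against -0.01 and 11.7% for other genes, and in plasmacytoid dendritic cells -0.19 and 26.8% against 0.03 and 9.83%. Ern1, of 93.2 kb, was below 0 in 7 types and called lower in 3. The part of gene length in these calls was not tested. Sdf2l1 was above 0 in 7 of 9 types and called higher in 4, monocytes, type 2 dendritic cells, T cells and B cells, and in tumour-sort cells it was at 70.67 and 68.29 CPM (-0.05).

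The levels of the members differed far more between cell types than between treatments. Over all 14 types gated, the 5 vehicle and 7 SCDi plasma cells, which secrete antibody, were highest in both treatments for 24 of 32 members. Hsp90b1 was at 4494 CPM in vehicle and 3464 CPM in SCDi plasma cells, against at most 763.2 CPM in any other type. Derl3, the derlin found in secretory cells, was at 218.7 and 246.7 CPM there and at most 3.741 CPM elsewhere. These plasma cells were too few to compare treatments. The share of all genes that were highest in them is not given here.

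Among the 10 types compared, plasmacytoid dendritic cells were highest in both treatments for 13 members, including Xbp1 (283.4 and 334.4 CPM), Herpud1 (304.7 and 356.8 CPM), Dnajc3, Edem2 and Sec61b. Microglia were highest for 5, Hspa5 (1012 and 977.1 CPM), Calr, Pdia3, Sdf2l1 and Edem1, and tumour-sort cells for 4. These were Pdia6 (577.6 and 563.2 CPM, against 340.1 CPM or less in the other types compared), Pdia4, Pdia5 and Ssr2. Canx in tumour-sort cells (251.4 and 220.5 CPM) and microglia (247.8 and 244.1 CPM) changed order between treatments. Migratory dendritic cells were lowest in both treatments for 19 members, with Hspa5 at 215.3 and 186.0 CPM, but highest for Dnajc10 and Sel1l. Tumour-sort cells were lowest for Ern1, Atf6 and Edem1. They came from other libraries than the leukocytes and were more deeply counted, so cell type and library cannot be told apart here. Ern1 was highest in NK cells, at 516.0 and 462.3 CPM, against 209.5 CPM or less in the other types, and lowest in tumour-sort cells at 23.62 and 23.56 CPM. Derl2 was highest in macrophages and Syvn1 in B cells. The shares of all genes that were highest or lowest in each type are not given here, so these counts describe the members only.

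**Figure D5:**
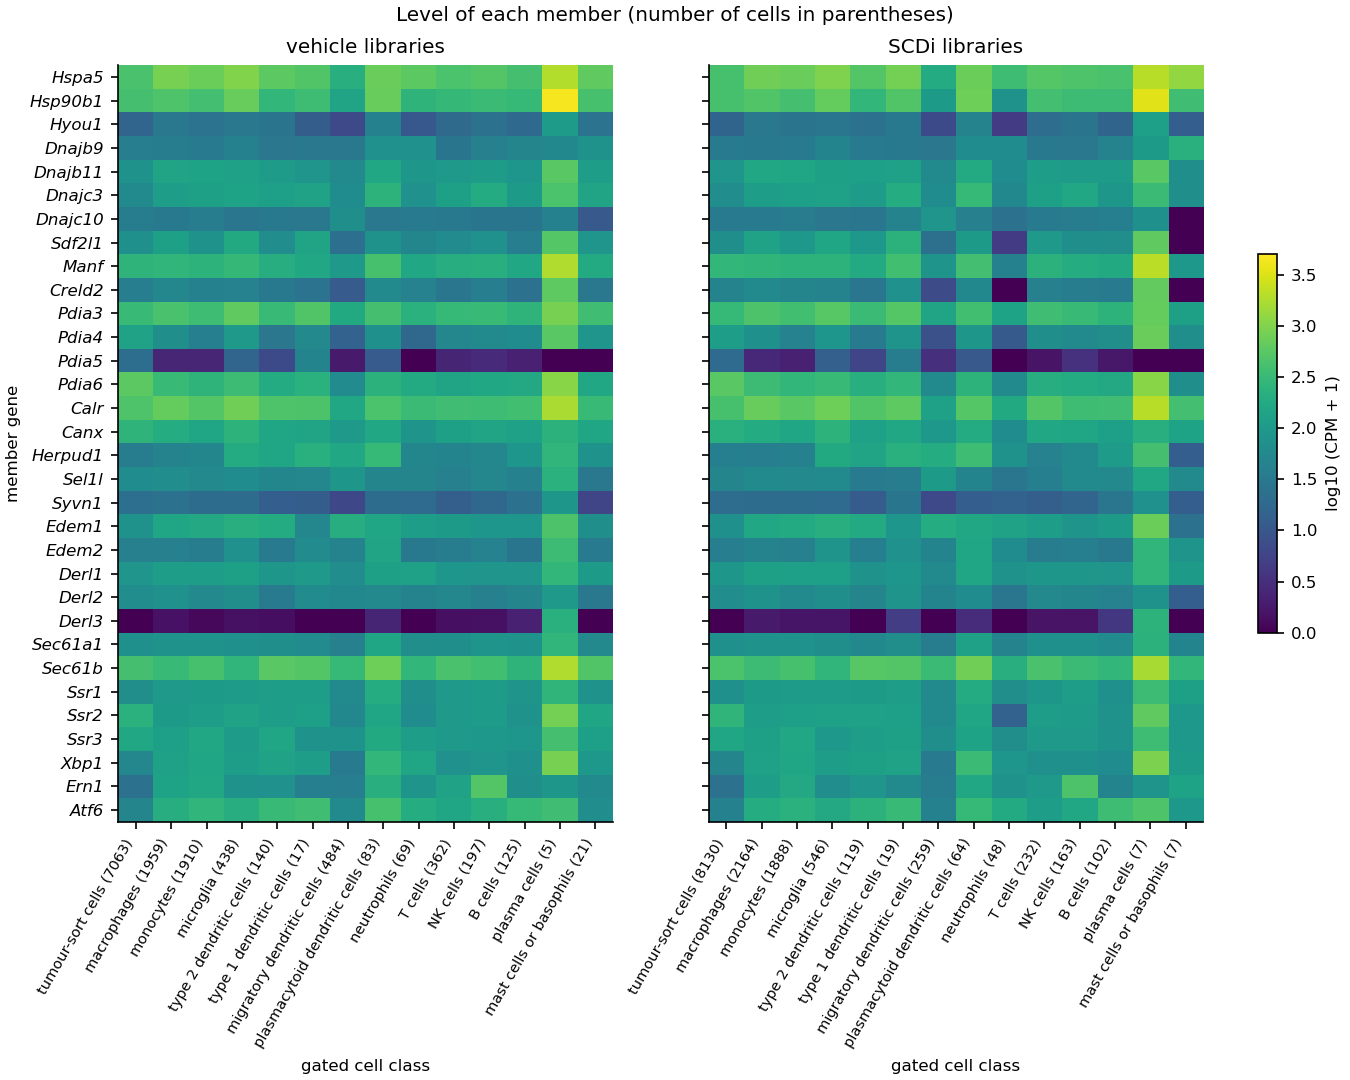
Level of each member (rows) in 14 gated cell types (columns, number of cells in parentheses) of the vehicle (left) and SCDi (right) libraries, as log10 of CPM + 1. The plasma cell column is brightest for most rows, migratory dendritic cells are darker than their neighbours for most chaperones, and Ern1 is brightest in NK cells.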

How the data were processed

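The 4 deposited matrices hold UMI counts per gene and barcode, made by the authors with Cell Ranger 7.1.0 on mm10, per the submitters' processing notes; for annotation, intron counting and doublet removal, nothing was stated in the labels. The members and gene lists were chosen with earlier results of these data known. Cells were gated on marker UMIs, with thresholds set after the data were seen; cells that met the gates of 2 lineages were left out as mixed, and no doublet caller was run. The cut of 10 UMIs of C1q genes between monocytes and macrophages had 7.76% to 12.7% of cells of a type between 5 and 20 UMIs. Ratios carry exact conditional binomial 95% intervals. These were run on independent simulated counts without spread between cells or mice, for which such intervals hold by design. The simulated run therefore checks only the calculation. The text names every member, gives both levels and the ratio for members called in tumour-sort cells and for the 3 highest and 3 lowest ratios of each type, and names the 2 highest and 2 lowest genes of each pathway list, except 1 gene that is not reported here. Of 19 other degradation genes 18 were matched. Gene positions and lengths came from GENCODE M21. Python 3.11.15, numpy 2.4.6, scipy 1.17.1, pandas 2.3.3 and matplotlib 3.10.9 were used. Alternatives changed the cell filters, gates, scaling, weighting, depth, pseudocount, count minimum, fold and cell subsets.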

Additional observations from a re-analysis of the deposited data

Results flagged for a closer look

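5 members were called in opposite directions in migratory dendritic cells and T cells of the same immune libraries, and with 1 library per treatment the difference was not tested. The log2 ratios of SCDi to vehicle were -0.51 and 0.43 for Hsp90b1, -0.27 and 0.28 for Manf, -0.28 and 0.28 for Pdia3, -0.93 and 0.43 for Pdia4, and -0.27 and 0.47 for Calr, in that order. With a stricter marker gate Hsp90b1 was the one of the 5 still called in both types, and in T cells without Mki67 or Top2a 0 of the 5 were called. The share of all genes called in opposite directions in these types is not given here, so the 5 cannot be set beside it.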

How the results depend on the processing

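No paired analysis was possible because each group is 1 library and the labels carry no replicate numbers. The median over members had the opposite sign under 13 of 113 alternatives, in 6 of 10 types. These were tumour-sort cells without Mki67 or Top2a, migratory (0.03) and plasmacytoid dendritic cells (-0.03) when thinned, 2 splits of T cells, NK cells when thinned (0.08) or without the highest 5% (0.00), and B cells in 6 of 10 (up to 0.14). Percentages in parentheses below are the shares of all genes called in that direction. In tumour-sort cells without Mki67 or Top2a the median was 0.0722 and Sel1l 0.0911, with 3 members higher (8.99%) and 0 lower (8.24%). The mean over 4 strata of cells gave a median of -0.0145 and 0 lower (11.5%). Subtracting the chromosome median gave -0.0116 and 1 higher (11.9%). Averaging single cells gave 1 higher (12.7%) and thinning to 5000 UMIs 1 higher (8.35%). A 1.1-fold threshold gave 4 higher and 7 lower, and a 1.5-fold threshold 0 lower. For these thresholds the share of all genes is not given here. In macrophages the lower count was 1 with all deposited barcodes (12%) and with the stricter cell filter (13.4%). It was also 1 without the 5% of cells highest in UMIs (13.5%). The count was 0 with a stricter gate (14.1%) or averaged cells (14.6%), and thinning gave 1 higher (5.91%). In monocytes averaged cells gave 1 lower (13.8%), thinning 1 lower (9.83%) and 0 higher (5.06%), and no count minimum 2 higher (4.08%). In microglia the lower count was 1 without the highest 5% (8.73%), 2 with a stricter gate (6.92%), 9 averaged (13.7%) and 7 thinned (8.39%). The higher count was 2 averaged (10.1%) and 1 thinned (7.13%), and the thinned median -0.18. In migratory dendritic cells a stricter gate gave 2 higher (4.96%) and 2 lower (12.6%), and scaling by the median of ratios 3 lower (9.6%). Averaging (6.69%) and thinning (4.85%) gave 0 higher, and the shallower cells 2 lower (9.65%) with Dnajc10 at -0.14. In T cells a stricter gate gave 4 higher (8.34%) and thinning 5 (5.21%). The shallower T cells gave 0 higher (7.14%), 4 lower (16.9%) and a median of -0.14. T cells without Mki67 or Top2a gave 1 higher (7.78%), 0 lower (10.6%) and Creld2 at -0.17. Cd4 cells gave 5 higher (11.3%) and Cd8 cells 0 lower (25%). Cd8 cells without Mki67 or Top2a (41 and 39 cells) gave 1 higher (10.4%) and 1 lower (16.1%). Ern1 was at 0.66 and Pdia6 at -0.19 in them. The splits of T cells and migratory dendritic cells were chosen after seeing the data. The chromosome 8 split of tumour-sort cells used a chromosome whose low median ratio came from these same data. Where no reason is given the cause was not tested. Depth limits the smaller types: the median half-width of an interval was 0.03 in tumour-sort cells and 0.35 in B cells.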
